A study of Mus musculus with 7 samples.

Results

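Bmp2, Bmp4 and Bmp7 encode bone morphogenetic proteins, and the peaks described here are those around these 3 genes. ChIP-seq, which sequences the DNA that an antibody pulls down with a protein, gave lists of Shox2 peaks in palate, Shox2 peaks in limb and Pbx peaks in limb of mouse embryos. A peak was taken when its midpoint lay at 132.9 to 134.1 Mb of chromosome 2 around Bmp2, at 46.5 to 47.6 Mb of chromosome 14 around Bmp4, or at 172.2 to 173.2 Mb of chromosome 2 around Bmp7, in the mouse build mm9. These windows held 55 of 15091 palate Shox2 peaks, 101 of 33915 limb Shox2 peaks and 97 of 33915 limb Pbx peaks, 253 of 82921 in all. The deposited list of regions shared by Shox2 and Pbx, which has 8999 entries, had 19 there. The loci were chosen on peak counts in these same lists, so the counts and overlaps below are descriptions and carry no test.

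The palate and limb Shox2 libraries came from embryos carrying Shox2 with an HA tag and were made with an antibody against HA. The Pbx library came from limb and was made with an antibody against Pbx, and its label gives no genotype and no single Pbx protein. All were of freshly dissected tissue at E12.5 (days of embryonic development), with 1 library each, and the labels do not say whether embryos were pooled. Another 4 libraries, a later limb Shox2 sample, a mixture of limb with palate, an anti-HA control on embryos without the tag and an input, were not used here. The peaks were therefore not compared here with background regions from a control. The lists give positions only, without height or score, and the sequencing depth is unknown.

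Bone morphogenetic proteins are secreted ligands of the TGF-beta superfamily. They bind pairs of type I and type II receptor kinases, which phosphorylate SMAD proteins that then act on target genes. In the limb bud, Bmp2, Bmp4 and Bmp7 are made in mesenchyme and in the apical ectodermal ridge and take part in digit patterning, interdigital cell death and cartilage formation. In the palate, Bmp2 and Bmp4 signals pass between epithelium and mesenchyme of the anterior shelves. Shox2 is a homeodomain transcription factor needed in mice for the proximal limb skeleton and for the anterior palate, and Pbx proteins are homeodomain factors of the TALE class that often bind DNA beside other homeodomain proteins.

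Gene positions were known only as given with the windows, rounded to 10 kb: 133.38 Mb for Bmp2, 47.00 Mb for Bmp4 and the span from 172.69 to 172.77 Mb for Bmp7. Distances below are from these positions and share that rounding. Gene order was read from the RefSeq table of GRCm38.p6, another build, whose coordinates were not used. Beyond several noncoding genes, the nearest protein-coding genes are Fermt1 below Bmp2 and Hao1 above it, Ddhd1 below Bmp4 and Cdkn3 above it, and Tfap2c below Bmp7 and Spo11 above it. Rubie, a noncoding RNA gene, follows Bmp4 on its upper side. Below and above mean lower and higher coordinates. Bmp2 is transcribed toward higher coordinates, and Bmp4 and Bmp7 toward lower ones.

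The limb Shox2 peak nearest to Bmp4 lay at chr14:47004897-47005066, 5.0 kb from the gene position, about the size of its rounding. The stretch before the start of Bmp4 is therefore shown, as the only one of the 3 genes with a promoter entry in the RefSeq table of GRCm38.p6. It is the 250 bases before the start, on the minus strand of chr14:46390670-46390919 in that build, and it has 63.2% G and C, against a median of 52.4% (quartiles 45.2 and 61.2%) over the same stretch of 32851 promoters.
Bmp4 promoter: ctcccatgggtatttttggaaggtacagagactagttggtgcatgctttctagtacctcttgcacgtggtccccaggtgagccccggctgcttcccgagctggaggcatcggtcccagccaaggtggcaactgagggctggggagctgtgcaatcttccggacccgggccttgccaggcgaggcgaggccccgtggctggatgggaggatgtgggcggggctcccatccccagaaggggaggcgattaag
None of 3 motifs was found in it on either strand, so no base is in capitals: TGATTNAT, a Pbx and Hox type motif found in 2.82% of the promoters, TGACAG, a Meis type motif found in 15.9%, and TAATTA, a homeodomain type motif found in 4.84%. Whether the peak lies in this stretch was not determined, since the builds differ.

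The 3 loci carried different mixtures of the lists. Bmp7 had 30 palate Shox2, 3 limb Shox2 and 60 limb Pbx peaks. Bmp4 had 18 palate Shox2, 58 limb Shox2 and 25 limb Pbx peaks. Bmp2 had 7 palate Shox2, 40 limb Shox2 and 12 limb Pbx peaks. Bmp7 was thus rich in palate Shox2 and Pbx and poor in limb Shox2, Bmp4 was rich in limb Shox2 with some of everything, and Bmp2 was rich in limb Shox2 alone.

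**Figure D1:**
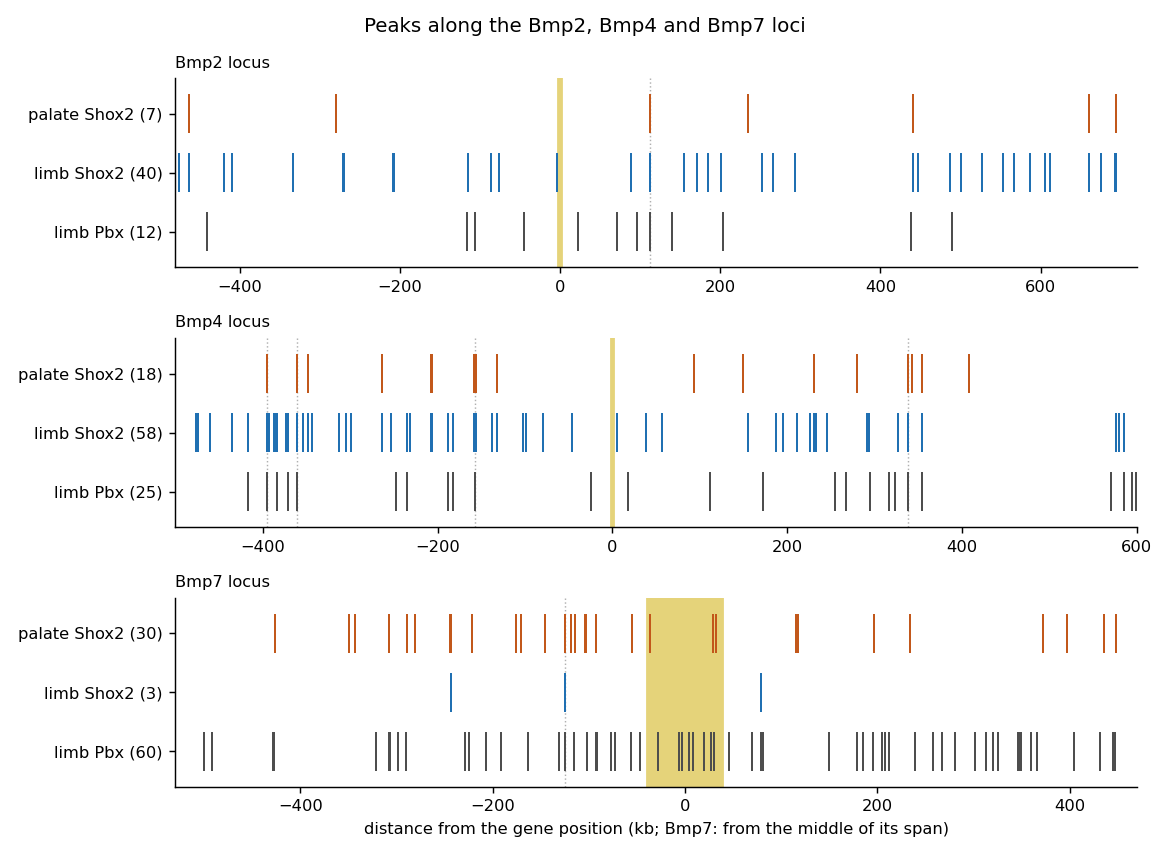
Every peak at the 3 loci, drawn as a line at its centre, with distance from the gene position in kb on the x axis and the lists from top to bottom as palate Shox2, limb Shox2 and limb Pbx (number of peaks in brackets). The yellow band marks the gene position (for Bmp7 its span) and dotted lines mark the 6 limb Shox2 peaks that overlap Pbx and hold a palate position. The Bmp7 panel has 3 limb Shox2 lines beside 60 Pbx lines, and the Bmp4 panel has 58 limb Shox2 lines.

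Per Mb, palate Shox2 peaks stood at 30.0 at Bmp7, 16.4 at Bmp4 and 5.83 at Bmp2, against 5.72 over all chromosomes. Limb Shox2 peaks stood at 3.0 per Mb at Bmp7, 52.7 at Bmp4 and 33.3 at Bmp2, against 12.9 over all chromosomes. Limb Pbx peaks stood at 60.0 per Mb at Bmp7, 22.7 at Bmp4 and 10 at Bmp2, against 12.9 over all chromosomes. The order of the loci in limb Shox2 density was therefore Bmp4, Bmp2, Bmp7, and in palate Shox2 and in Pbx density it was Bmp7, Bmp4, Bmp2.

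When all chromosomes were cut into consecutive windows as wide as each locus, few windows matched the densest counts. Of 2646 windows of 1.0 Mb, 5 held at least the 30 palate Shox2 peaks of Bmp7 and 10 held at least its 60 Pbx peaks, while 593 (22.4%) held no more than its 3 limb Shox2 peaks. Of 2408 windows of 1.1 Mb, 25 (1.04%) held at least the 58 limb Shox2 peaks of Bmp4. For the other lists at Bmp4, 143 windows (5.94%) reached its 18 palate Shox2 peaks and 432 (17.9%) its 25 Pbx peaks. Of 2209 windows of 1.2 Mb, 139 (6.29%) held at least the 40 limb Shox2 peaks of Bmp2, whereas its 7 palate Shox2 and 12 Pbx peaks were reached by 43.9% and 50.6% of windows. Bmp2 was thus in the upper part of the range for limb Shox2 and near the middle for the other lists.

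**Figure D2:**
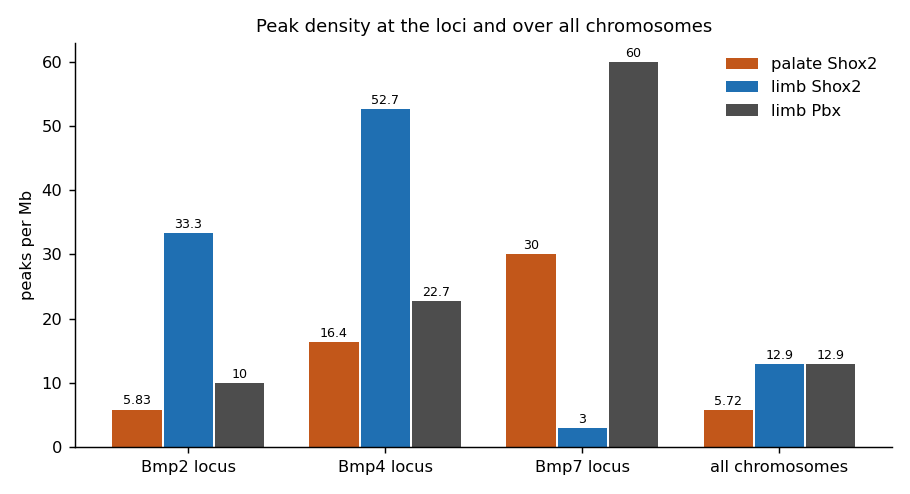
Peaks per Mb (y axis, from 0) at each locus and over all chromosomes, with bars for palate Shox2, limb Shox2 and limb Pbx. Limb Shox2 is highest at Bmp4 (52.7 per Mb), and palate Shox2 (30.0 per Mb) and limb Pbx (60.0 per Mb) are highest at Bmp7.

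The palate list is shorter than the limb list, so each count was also taken as a share of its own list. Bmp7 held 0.199% of palate Shox2 peaks and 0.00885% of limb Shox2 peaks, a palate over limb ratio of 22.5 (95% exact interval 6.99 to 115). Bmp4 held 0.119% of palate and 0.171% of limb Shox2 peaks, a ratio of 0.697 (interval 0.387 to 1.2, which includes 1). Bmp2 held 0.0464% of palate and 0.118% of limb Shox2 peaks, a ratio of 0.393 (interval 0.149 to 0.887). Over the 3 loci together the ratio was 1.22 (interval 0.865 to 1.72), and without Bmp7 it was 0.573. Intervals here and below cover the counting of peaks only and treat peaks as independent. The loci were chosen on peak counts in these lists, so whether an interval includes 1 or a whole-list share is no test. With 1 library per tissue, a difference between tissues cannot be told apart from one between libraries or between the cutoffs of the lists.

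Peaks just outside the windows were counted in flanks of 200 kb, with no test. At Bmp7 the flanks held 3 palate, 3 limb Shox2 and 5 Pbx peaks below the window, and 4 palate, 2 limb Shox2 and 16 Pbx peaks above it. At Bmp4 the flanks held 1 palate, 5 limb Shox2 and 6 Pbx peaks below and 0 palate, 0 limb Shox2 and 4 Pbx peaks above. At Bmp2 they held 0 palate, 5 limb Shox2 and 1 Pbx peak below and 0 palate, 6 limb Shox2 and 1 Pbx peak above. The closest peaks to an edge were a Pbx peak 0.619 kb inside the upper edge at Bmp4 and one 1.9 kb outside the upper edge at Bmp7.

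At Bmp4, distances from the gene depend on the window, which runs from 46.5 to 47.6 Mb around 47.00 Mb. They were not compared with an even spread of peaks. Of 58 limb Shox2 peaks, 38 lay below the gene position, the downstream side, and 20 above it. The median distance was 292 kb, and 6 limb Shox2 peaks lay within 100 kb, together with 1 palate Shox2 and 2 Pbx peaks. The nearest palate Shox2 position was 93.6 kb above the gene, at 47093583, and the nearest Pbx peak was 17.2 kb above it, at chr14:47016479-47017947. The nearest limb Shox2 peak, named above, was 170 bp wide, the smallest width in the limb Shox2 list, and neither a palate position nor a Pbx peak overlapped it.

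The densest stretch at Bmp4 was on the downstream side. The 100 kb from 46.6 to 46.7 Mb held 3 palate Shox2, 14 limb Shox2 and 4 Pbx peaks, the most limb Shox2 peaks of any 100 kb in the 3 loci. With peaks joined into groups when neighbouring centres lay at most 10 kb apart, whatever the list, the largest group at Bmp4 had 12 peaks over 25.1 kb, at chr14:46603808-46628930, with 1 palate Shox2, 8 limb Shox2 and 3 Pbx peaks. Of those 8 limb peaks, 5 were on Pbx. A single Pbx peak in this group, chr14:46615137-46616646, was met by 3 limb Shox2 peaks of 172, 290 and 255 bp.

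Over the 3 loci, 19 of 101 limb Shox2 peaks overlapped a Pbx peak (18.8%), and 15 of the 19 were at Bmp4. Without Bmp4 the pooled share was 9.3%, and without Bmp2 it was 27.9%. At Bmp4, 15 of 58 limb Shox2 peaks (25.9%, exact interval 15.3 to 39.0%) overlapped a Pbx peak by at least 1 bp, against 26.5% of the whole limb Shox2 list, so the share was near that of the list. At Bmp2, 2 of 40 did (5.0%, interval 0.611 to 16.9%), and at Bmp7, 2 of 3. The lower share at Bmp2 depended on the window: within 250 kb of the gene positions the shares were 15.4% at Bmp4 (4 of 26, interval 4.36 to 34.9%) and 15.4% at Bmp2 (2 of 13, interval 1.92 to 45.4%), and both intervals include that of the whole list. From the other side, 13 of 25 Pbx peaks at Bmp4 (52.0%, interval 31.3 to 72.2%) overlapped a limb Shox2 peak, against 23.4% of the whole Pbx list. At Bmp2 1 of 12 Pbx peaks did (8.33%, interval 0.211 to 38.5%, which includes the share of the whole list). At Bmp7 2 of 60 did (3.33%, interval 0.406 to 11.5%). Limb Shox2 peaks covered 1.66% of the Bmp4 window, 0.983% of the Bmp2 window and 0.0944% of the Bmp7 window, against 0.408% of all chromosomes. The share of Pbx peaks on limb Shox2 had the same order over the 3 loci. At Bmp2, though, the covered length was above that of all chromosomes and the share below that of the whole Pbx list. The part of covered length was not tested.

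The pairs were centred close together. Over the 19 co-occupied limb peaks of the 3 loci, the centres of the Shox2 peak and its Pbx peak were 7 to 514 bp apart, with a median of 182 bp, against a median of 142 bp over the whole list. In 16 of the 19 (84.2%) the Shox2 peak lay wholly inside the Pbx peak, against 87.5% over the whole list. None of the other 82 limb Shox2 peaks ended within 100 bp of a Pbx peak, against 0.606% of such peaks in the whole list. Of the 82, 2 ended within 500 bp. All 19 regions that the deposited co-occupancy list gives here were the limb Shox2 peaks found by this overlap.

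**Figure D3:**
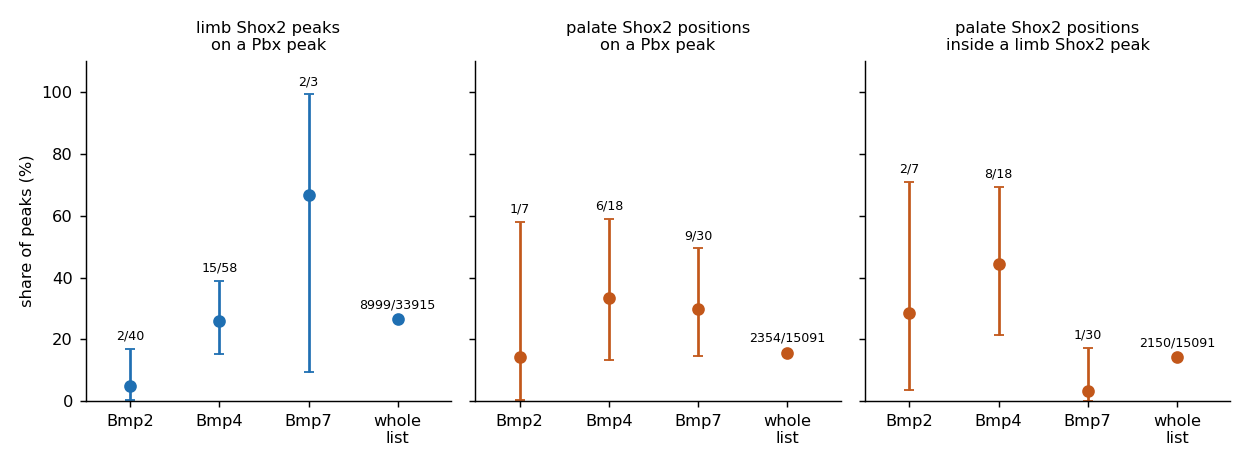
Share of peaks in percent (y axis, from 0) at each locus and in the whole list, for limb Shox2 peaks on Pbx, palate Shox2 positions on Pbx and palate Shox2 positions inside a limb Shox2 peak. Points are shares, bars are 95% exact intervals over peaks, and the numbers above are peaks that overlap over peaks in all. Intervals are wide at the loci, and those of Bmp2 for limb Shox2 on Pbx (upper end 16.9%) and of Bmp4 for palate inside limb Shox2 (lower end 21.5%) do not reach the share of the whole list. Within 250 kb of the gene positions (not drawn) both intervals include it.

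Over the 3 loci, 11 of 55 palate positions lay inside a limb Shox2 peak, and 8 of the 11 were at Bmp4. The pooled share was 8.11% without Bmp4 and 40.0% without Bmp7. Of the 18 palate positions at Bmp4, 8 (44.4%, interval 21.5 to 69.2%) lay inside a limb Shox2 peak, against 14.2% of the whole palate list. At Bmp7 1 of 30 did (3.33%, interval 0.0844 to 17.2%), where limb Shox2 peaks were few, and at Bmp2 2 of 7. Within 250 kb of the gene position the share at Bmp4 was 33.3% (3 of 9, interval 7.49 to 70.1%), which includes that of the whole list. In the first 50% of every list it was 37.5% (3 of 8, interval 8.52 to 75.5%), against 13.7%. With centres within 500 bp it was 72.2%, against 19.0%, and with every peak set to 200 bp 55.6%, against 14.9%. At Bmp2 the same settings gave 71.4% (5 of 7) and 42.9% (3 of 7), so the higher share was not particular to Bmp4. At Bmp7 each setting gave 6.67% (2 of 30). From the limb side, 7 of 58 limb Shox2 peaks at Bmp4 held a palate position, 1 of 3 at Bmp7 and 2 of 40 at Bmp2, against 6.28% of the whole limb list. Palate peaks were deposited as single positions, so a small offset decides an overlap. Of the 44 palate positions at the 3 loci that missed every limb Shox2 peak, 7 (15.9%) were within 100 bp of one, against 2.73% of such positions in the whole list. The closest misses were at Bmp4, 7 bp from a limb peak at 47230912 and at 47354104.

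Palate Shox2 positions were also set against limb Pbx, although Pbx was profiled in limb alone. Over the 3 loci, 16 of 55 lay in a Pbx peak (29.1%, interval 17.6 to 42.9%). At Bmp7, 9 of 30 palate positions (30.0%, interval 14.7 to 49.4%) lay in a limb Pbx peak, at Bmp4 6 of 18 (33.3%, interval 13.3 to 59.0%) and at Bmp2 1 of 7, against 15.6% of the whole palate list. Pbx peaks covered 9.06% of the Bmp7 window, 2.49% of the Bmp4 window and 0.834% of the Bmp2 window, against 1.33% of all chromosomes. Bmp7 and Bmp4 thus exceeded the whole list in both the share on Pbx and the covered length. The intervals of both shares include that of the whole list, and the part of covered length was not tested. The share at Bmp7 depended on peak width: it was 16.7% with centres within 500 bp, against 14.0% in the whole palate list, and 6.67% with every peak set to 200 bp, against 9.37%. At Bmp4 the same settings gave 33.3% and 22.2%. Among Pbx peaks, 8 of 60 at Bmp7, 5 of 25 at Bmp4 and 1 of 12 at Bmp2 held a palate position, against 6.62% of the whole Pbx list.

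Sites in all 3 lists numbered 6 of 101 limb Shox2 peaks at the loci (5.94%), against 2.3% of the whole limb list. The exact interval of this share starts at 2.21% and includes that of the whole limb list. Of the 6 sites, 4 were at Bmp4, 1 at Bmp7 and 1 at Bmp2. Counted as palate positions these sites were 7 of 55 (12.7%, interval 5.27 to 24.5%), since 1 limb peak held a pair of palate positions. The whole palate list gave 5.18%, just below the lower end of that interval. Each is described in turn, with its place in a list given as the percent of lines from the top. What the order of lines stands for is not stated. Widths fell along it: the median width of limb Shox2 peaks was 441 bp in the first 20% of lines and 204 bp in the last 20%, and that of Pbx peaks was 1279 bp and 705 bp.

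The site with the highest place in all of the limb data here was at Bmp4, 158 kb on the downstream side. Its limb Shox2 peak, chr14:46841878-46842560, was 683 bp wide and at 0.209% of the list. It held the palate positions 46842039, at 1.15% of the palate list, and 46842475, at 13.7%. The Pbx peak there, chr14:46841925-46843056, stood at 40.7% of its list. Both Shox2 lists placed this site near their top, and the Pbx list nearer its middle.

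The site 361 kb downstream of Bmp4 stood high in every list. Its limb Shox2 peak, chr14:46638873-46639848, was the widest at the 3 loci with 976 bp and stood at 2.38% of the list. The palate position 46639443 stood at 6.0% and lay 82.5 bp from the centre of the limb peak. The Pbx peak chr14:46638631-46640076 stood at 4.01%, with its centre 7 bp from that of the limb Shox2 peak.

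The other sites of this kind at Bmp4 stood lower. At 396 kb downstream, the limb peak chr14:46604129-46604407 stood at 28.1% of its list and the palate position 46604265, 3 bp from its centre, at 52.4%. At 338 kb on the upstream side, the limb peak chr14:47338156-47338459 stood at 12.3%, the palate position 47338287 at 68.9% and the Pbx peak chr14:47337992-47338835 at 97.3%, near the end of the Pbx list. Close by, 354 kb upstream, the limb peak chr14:47354111-47354551 stood at 1.11% of its list on a Pbx peak at 17.7%, and the palate position 47354104 lay in that Pbx peak but missed the limb Shox2 peak by 7 bp.

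At Bmp7 the one site in all 3 lists lay 85.3 kb below the gene span, which is its downstream side. The limb Shox2 peak chr2:172604555-172604916 was 362 bp wide and stood at 0.89% of the list. The palate position 172604753 stood at 8.87% and the Pbx peak chr2:172604225-172605173 at 3.15%. The 3 centres lay close together. The palate position was 17.5 bp from the limb Shox2 centre and 54.0 bp from the Pbx centre, and the limb Shox2 centre was 36.5 bp from the Pbx centre. This site sat in the largest group of peaks at the 3 loci, 13 peaks over 40.3 kb at chr2:172598657-172638948, with 6 palate Shox2, 1 limb Shox2 and 6 Pbx peaks.

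At Bmp2 the site in all 3 lists was 112 kb above the gene, on its downstream side. A Pbx peak of 1129 bp, chr2:133491911-133493039, at 13.7% of its list, carried a pair of limb Shox2 peaks and a palate position. The limb peak chr2:133492404-133492974 stood at 0.262% of the list and held no palate position. Its neighbour chr2:133491914-133492324 stood at 16.6% and held the palate position 133492304, at 70.1% of the palate list. These were the only co-occupied limb peaks of the Bmp2 window, and this palate position was the nearest to the gene in its list.

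Limb Shox2 peaks holding a palate position were 10 of 101 at the loci (9.9%), against 6.28% of the whole limb list. Those also on Pbx were 5.94% and 2.3%, so the shares left without Pbx were similar. Shox2 sites shared by palate and limb without Pbx numbered 4 of the 101 limb peaks, 3 at Bmp4 and 1 at Bmp2. The one at Bmp2 stood high in the limb list: chr2:134040151-134040980, 661 kb above the gene, was 830 bp wide and at 1.1% of the list, and its palate position 134040617 stood at 21.8%. Those at Bmp4 were chr14:46651629-46651929 at 47.1% of the limb list, chr14:46735766-46735955 at 92.9% and chr14:46867728-46868060 at 92.0%, with palate positions at 55.8%, 35.8% and 80.4% of their list. All 3 lay downstream of Bmp4, and 7 of the 8 palate positions shared with limb at this locus were on that side.

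At Bmp2, 2 of 40 limb Shox2 peaks were on Pbx (5.0%, against 26.5% of the whole limb list). As many held a palate position (5.0%, against 6.28%, so near the share of the list). The 27 limb Shox2 peaks above the gene and the 13 below it had a median spacing of 18.1 kb and a largest gap of 148 kb. The nearest, chr2:133375810-133376045, was 4.1 kb below the gene position, within its rounding, 236 bp wide and at 45.8% of the list. It met neither Pbx nor a palate position. Over the window, which reaches further above the gene than below it, the median distance was 115 kb for Pbx, 441 kb for palate Shox2 and 414 kb for limb Shox2. Near the gene, Pbx peaks did not outnumber limb Shox2 peaks. Within 100 kb there were 4 limb Shox2, 4 Pbx and 0 palate Shox2 peaks, and within 250 kb 13, 9 and 2. The nearest Pbx peak was 22.0 kb above the gene, at chr2:133401757-133402313. The 300 kb that ended at the upper edge of the window, 133.8 to 134.1 Mb, held 3 palate Shox2, 17 limb Shox2 and 2 Pbx peaks, and none of the 17 was on Pbx.

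At Bmp7, peaks of all 3 lists lay on both sides of the gene, and palate Shox2 and Pbx peaks also lay within its span. The span from 172.69 to 172.77 Mb held 3 palate Shox2, 0 limb Shox2 and 8 Pbx peaks. Within 100 kb of the span there were 12 palate Shox2, 2 limb Shox2 and 22 Pbx peaks. Toward the upper end of the span, where Bmp7 starts, the Pbx peak chr2:172758083-172762106 was 4024 bp wide and held the palate positions 172759446, at 11.3% of its list, and 172761941, at 26.6%. The palate position 172693241, at 17.0%, lay near the lower end of the span and outside Pbx.

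The 3 limb Shox2 peaks of the Bmp7 window can all be given, since they are so few. Besides the site in all 3 lists, chr2:172808337-172808742 lay 38.5 kb above the span, on the upstream side, was 406 bp wide and stood at 16.7% of the list. It was inside the Pbx peak chr2:172807968-172809646, which stood at 2.85% of its list, and was the limb Shox2 peak nearest to the gene. The remaining one, chr2:172486664-172486839, was 176 bp wide and at 67.6% of the list. The palate position 172486627 lay 37 bp outside it and stood at 1.99% of the palate list, the highest place of any palate position at Bmp7.

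Co-occupied limb Shox2 peaks stood higher in their list and were wider than the others at the same loci. Over the 3 loci, the 19 on Pbx had a median place of 24.5% and a median width of 411 bp, and the 82 not on Pbx had 57.7% and 238 bp. In the whole limb list the corresponding medians were 33.6% and 326 bp for peaks on Pbx and 55.0% and 245 bp for the rest. In the first 50% of the limb list, 16 of 48 peaks at the loci were on Pbx (33.3%), and in the second 50% 3 of 53 were (5.66%), against 34.6% and 18.5% over the whole list. At Bmp4 these were 12 of 30 and 3 of 28. Wider peaks can meet another list more easily, and the part of width was not tested.

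**Figure D4:**
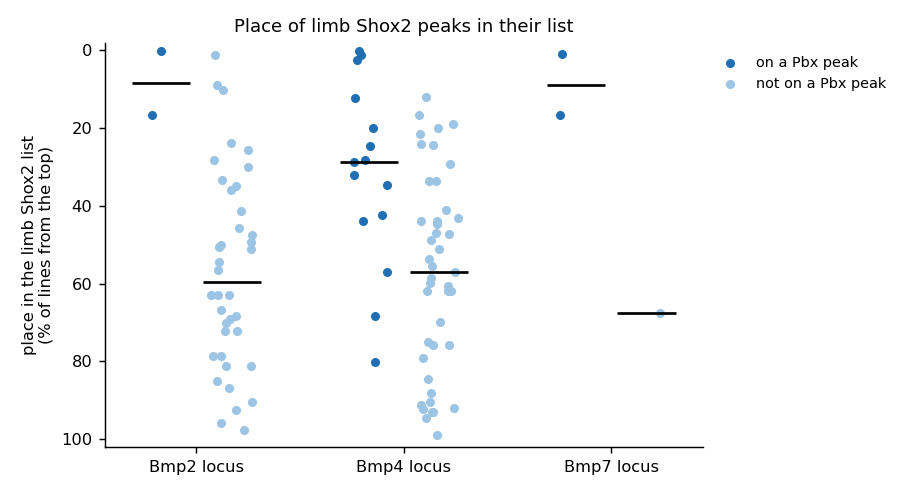
Place of each limb Shox2 peak in its list, as the percent of lines from the top (y axis, top of the list uppermost), at each locus. Dark points are peaks on a Pbx peak, pale points are the others, and black lines are medians. At Bmp4 the medians are 28.7% for the 15 peaks on Pbx and 56.9% for the 43 others, and peaks on Pbx reach down to 80.1%.

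Pbx peaks were widest at Bmp7. Their median width was 1230 bp at Bmp7, 1070 bp at Bmp4 and 756 bp at Bmp2, against 897 bp over the whole Pbx list. At Bmp7, 9 of 60 Pbx peaks (15.0%) were at least 2000 bp wide, against 5.26% of the whole list, and none was at Bmp4 or Bmp2. The widest, chosen after its width was seen, was chr2:172993252-173000395, 7144 bp wide and 227 kb above the Bmp7 span. Limb Shox2 peaks differed less, with median widths of 362 bp for the 3 at Bmp7, 276 bp at Bmp4 and 237 bp at Bmp2, against 261 bp over the whole list.

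**Figure D5:**
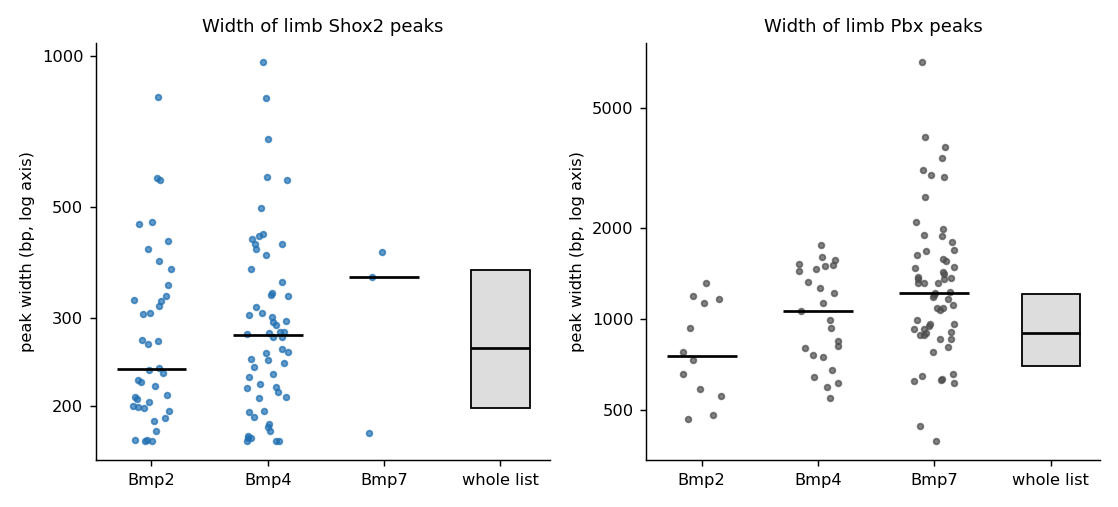
Width of limb Shox2 peaks (left) and limb Pbx peaks (right) in bp on a log axis, with 1 point per peak and black lines for medians, at each locus. The grey box spans the quartiles of the whole list, 198 to 374 bp for limb Shox2 and 698 to 1210 bp for limb Pbx. The 9 Pbx peaks of at least 2000 bp are all at Bmp7.

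The loci did not stand at one end of the lists. The median place was 51.9% of the palate list for the 55 palate positions, 51.1% of the limb list for the 101 limb Shox2 peaks and 42.7% of the Pbx list for the 97 Pbx peaks. In the first 10% of each list were 9 of the palate positions (16.4%), 7 of the limb Shox2 peaks (6.93%) and 11 of the Pbx peaks (11.3%). Of the 7 limb peaks, 5 were on Pbx, and they are the co-occupied sites given above at 0.209%, 0.262%, 0.89%, 1.11% and 2.38%.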

How the data were processed

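Peak lists of 3 ChIP-seq libraries (Shox2 in palate, Shox2 in limb, Pbx in limb) and 1 list of shared regions were used. The authors deposited, for each peak, a chromosome, a start and an end, with no score or count. Bowtie, MACS2 and the build mm9 are named per the submitters' processing notes; versions and settings are not given there. Positions are printed counting from 1. Peak sequences are not shown, since the reference tables are of GRCm38.p6, and the planned counts near other genes of the pathway were not made.

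Peaks were assigned to a locus by midpoint, and an overlap meant at least 1 shared bp. Intervals are exact (Clopper-Pearson, 95%) and cover counting error only. Ranks used consecutive windows from the start of each chromosome. There were no replicates, so no test was run. The members and lists were chosen with earlier results of these data known. The peaks named are those in all 3 lists, those shared by palate and limb Shox2, co-occupied peaks in the first 10% of the limb list, and the peak of each list nearest each gene; others were named after their values were seen. Alternatives changed the overlap rule, list length and window. The overlap code was tested on simulated data. Python 3.11.15, NumPy 2.4.6, pandas 2.3.3, SciPy 1.17.1 and matplotlib 3.10.9 were used.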

Additional observations from a re-analysis of the deposited data

How the results depend on the processing

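Of 28 alternatives for the 4 pooled values, 16 stayed within the exact interval of the reported value. The share of limb Shox2 peaks on Pbx (18.8%) was 9.9% with every peak set to 200 bp, 29.2% in the first 50% of every list, 27.9% without Bmp2 and 9.3% without Bmp4. The whole limb list gave 16.4% at 200 bp and 24.4% in the first 50%. The share of palate positions on Pbx (29.1%) was 12.7% at 200 bp, against 9.37% in the whole palate list, and at Bmp7 it was 6.67% at 200 bp, where Pbx peaks are wide. The share of palate positions inside limb Shox2 peaks (11 of 55) was 36.4% with centres within 500 bp, against 19.0% in the whole list, 8.11% without Bmp4 and 40.0% without Bmp7. The palate over limb ratio (1.22) was 1.77 within 250 kb of the gene positions, 1.77 without Bmp2 and 1.93 without Bmp4, and it turned to 0.573 without Bmp7, so pooled values rest on which locus is counted. Of 48 alternatives for single loci, 42 stayed within the interval and none turned the ratio. Those intervals are wide, so staying within them says little. At Bmp2 the share of limb Shox2 peaks on Pbx went from 5.0% (interval 0.611 to 16.9%) to 15.4% within 250 kb and still counted as within. The causes were not tested. No paired analysis was possible because the 3 libraries used held 1 for each tissue and antibody. For the same reason none of them was left out in turn. With unknown depth and list cutoffs, absence from a list does not show absence of binding.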

Other observations

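Neighbouring lines of the limb Shox2 file often held neighbouring peaks. At the 3 loci, 13 pairs of peaks of one locus stood on consecutive lines of the limb Shox2 list, 1 pair in the palate list and 0 in the Pbx list, and the later line had the higher coordinate in all 14 pairs. In the whole limb Shox2 list, 3625 of 33914 consecutive pairs (10.7%) lay within 1 Mb of each other, and the later line had the higher coordinate in 3621 of them. In the palate list 426 pairs (2.82%) did so, 423 of them ascending, and in the Pbx list 144 pairs (0.425%), 141 of them ascending. Places in the list within such a run give no order between its peaks.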
